A study of Mus musculus with 12 samples.

Results

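Cluster 7 of the 28-week spleen is a group of 390 cells that the authors' own clustering set apart among 6481 PD-1+CD44+CD8+ T cells of that library, 6.02% of them (exact binomial 95% interval 5.45 to 6.62%). Its members were taken by cluster number from the deposited cluster assignment, and its expression from the deposited mean counts of that cluster. The series as a whole held 20510 cells in 3 libraries: 12-week spleen (12W spleen, 6894 cells in 10 clusters), 28-week spleen (28W spleen, 11 clusters) and 28-week kidney (28W kidney, 7135 cells in 12 clusters), all from NZB/W F1 mice. NZB/W F1 mice, bred from NZB and NZW parents, develop a lupus-like disease with nephritis as they age, and the mice named in the study's methods were female. All 3 groups were sorted in the same way for PD-1, CD44 and CD8, none received a treatment per the labels, and no unsorted or PD-1- group was analysed here. The labels list 4 samples for each library, with titles ending in L001 to L004, and whether these are separate samples or sequencing lanes of 1 library is not stated. Their tables are pooled with no map from cells to samples, and the number of mice is not stated. For 28W spleen the titles and the age given elsewhere in the labels (12 weeks) conflict, and the titles were used.

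Each group was therefore a single library, without replicates, and no difference was tested. Every interval is a 95% interval for counting error alone. The clustering used the same genes, so the contrast of cluster 7 with the remaining cells is a description. Levels are UMIs per 1000000 UMIs of the cluster (CPM), where a UMI (unique molecular identifier) marks 1 captured transcript. Log2 ratios are of CPM + 1, a scale on which differences of genes with few UMIs come out too small. A gene was compared if it reached 20 CPM on either side, and was counted as higher or lower past 1.5-fold.

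CD8+ T cells that have not met antigen, and the central memory cells that resemble them, carry the lymph node homing receptor CCR7 and the transcription factors TCF1 and LEF1. Effector and effector memory cells lose these and gain granzymes, chemokines and the factors T-bet, EOMES and BHLHE40. Heat shock proteins are chaperones that assist protein folding. Their inducible members are switched on by heat, by misfolded protein and by T cell activation and growth, and they are also among the genes that respond when tissue is dissociated.

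Cluster 7 held 2717015 UMIs, 8.48% of the library, or 6967 UMIs per cell against a mean of 4811 in the other 6091 cells. The other 10 clusters ran from 1020 (cluster 8) to 12208 UMIs per cell (cluster 6), so cluster 7 was the second deepest. A gene with 0 UMIs in cluster 7 could be at up to 1.10 CPM (3 counts). Ribosomal protein genes took 39.0% of its UMIs, second to cluster 1 at 40.9%, against 33.6% in the other cells. Mitochondrially encoded genes took 1.02%, against 1.07% in the other cells and 6.64% in cluster 11. Of its barcodes, 2 also occurred in 12W spleen and 6 in 28W kidney, where whole libraries shared 52 to 66.

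The sorted identity was checked first. All 7 CD8 T cell markers were present in cluster 7, at a summed 5667 CPM against 5048 in the other cells, and none differed past 1.5-fold. *Cd8a*, the alpha chain of the CD8 coreceptor, was at 499 CPM (473 to 527) against 487 in the other cells. The transcripts of the other sort markers were at the low end of the library. *Pdcd1*, which encodes PD-1, was at 21.3 CPM (16.2 to 27.6) in cluster 7, where the other 10 clusters ran from 10.1 to 75.5 with a median of 36.2. *Cd44*, a receptor for hyaluronan that marks antigen-experienced cells, was at 34.96 CPM (28.3 to 42.7), the lowest of the 11 clusters, although the next, cluster 1 at 37.0, lay within that interval. The sort acts on protein, and protein was not measured in these files.

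Markers of most other cell types were at or near 0. No neutrophil marker had a UMI in cluster 7, against a summed 23709 CPM in cluster 8. The 5 erythroid markers summed to 0.736 CPM (40824 in cluster 8), the 5 NK cell markers to 0.736 (1222 in cluster 10) and the 3 CD4 T cell markers to 1.84, each the lowest of the 11 clusters. B cell markers summed to 294 CPM, between 187 in cluster 1 and 33442 in cluster 10. Most of the cluster 7 sum was *Ighm* at 205 CPM and *Cd79b* at 55.6, while *Ms4a1* had no UMI and *Cd79a* had 3. Myeloid markers summed to 144 CPM, of which *Cst3* made up 142, and *C1qa*, *Csf1r* and *Adgre1* had none. Kidney tubule markers summed to 1.10 CPM.

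Against the other 10 clusters, 5216 genes were compared. Cluster 7 was higher past 1.5-fold in 53 of them (1.02%) and lower in 786 (15.1%). The median gene was at a log2 ratio of -0.20, beside the larger share of ribosomal protein UMIs. For many lists below the median is therefore also given relative to all genes. A list median over the other 10 clusters that is given alone is to be read against -0.20. With the median gene set to 0, the counts were 168 higher and 401 lower, which moved the share of higher genes among those past the fold from 6.32% to 29.5%. With T cell receptor, immunoglobulin, mitochondrial and ribosomal protein genes left out of the totals, 150 were higher and 794 lower, a share of 15.9%. The plot of cluster 7 against the other cells shows both sides.

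**Figure D1:**
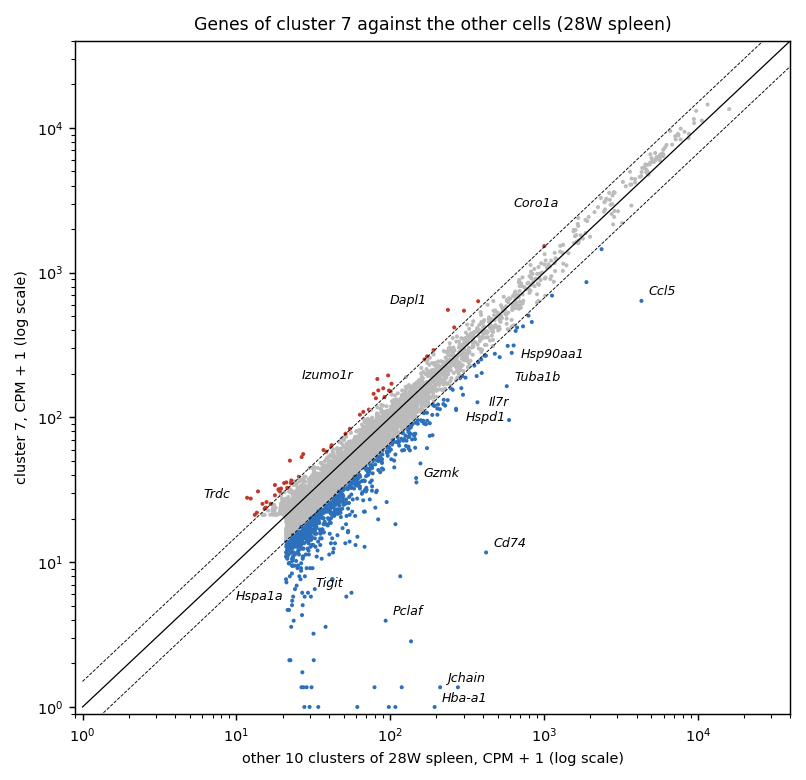
Each point is 1 of the 5216 genes compared, by its level in the other 10 clusters of 28W spleen (x axis, CPM + 1, log scale) and in cluster 7 (y axis, CPM + 1, log scale). The solid line marks equal levels and the dashed lines 1.5-fold, with the 53 higher genes in red and the 786 lower genes in blue. *Hbb-bs* and *Jchain*, with 1 UMI each in cluster 7, lie at the bottom of the plot.

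The 15 lowest ratios were mostly of erythroid, neutrophil, myeloid and B cell genes. They include *Hbb-bs* with 1 UMI in cluster 7 and 20408 CPM in cluster 8, *Jchain* with 1 UMI and 5519 CPM in cluster 10, and *S100a8*, *S100a9*, *Ngp*, *Camp* and *Lcn2* with none. *Tyrobp*, a signalling adaptor of NK and myeloid receptors, also had 0 UMIs in cluster 7, where every other cluster had between 2.25 and 756 CPM. Cluster 7 was therefore also compared with clusters 1 to 5 alone, the 5 largest clusters with 4469 cells, a choice made after the values were seen. There 58 of 5131 genes were higher (1.13%) and 598 lower (11.7%), with a median of -0.19. A list median over clusters 1 to 5 that is given alone is to be read against that value.

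The listed genes of naive and memory cells summed to 3111 CPM in cluster 7, below cluster 11 at 4236 and cluster 3 at 3627 and above the other 8 clusters. Against the other cells, 6 of 14 listed genes were higher past 1.5-fold and 1 was lower, with a list median of 0.42 (0.62 relative to all genes). *Dapl1* was at 552 CPM (524 to 581), where the other clusters ran from 39.7 to 329 with a median of 205. Cluster 7 was thus the highest of the 11, ahead of cluster 5. Its log2 ratio over the other cells was 1.22 (1.14 to 1.30). *Ccr7*, the chemokine receptor that guides cells into lymph nodes, was at 263 CPM (244 to 283), level with cluster 3 at 264 and below cluster 11 at 441.

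*Lef1* was at 250 CPM (232 to 270) and *Satb1*, a chromatin organiser of T cell development, at 135 (121 to 149), and both were exceeded in clusters 3 and 11. *Rgs10*, a regulator of G protein signalling, was at 194 CPM (178 to 211), level with cluster 3 at 199. Log2 ratios over the other cells were 0.75 for *Satb1*, 0.60 for *Ccr7*, 0.59 for *Lef1* and 1.01 for *Rgs10*. The memory markers of the study's cluster naming were higher past the fold in 5 of 5 (median 0.75). *Actn1* (0.50), *Igfbp4* (0.33), *Id3* (0.18), *Foxo1* (0.18), *Tcf7* (0.14), *Bach2* (0.10) and *Foxp1* (-0.02) of the naive and memory list were within the fold. The exception in the list was *Il7r*, the interleukin-7 receptor that naive and memory cells use for survival. It was at 126 CPM (113 to 140), where the other clusters ran from 54.0 (cluster 6) to 760 (cluster 4) with a median of 419, a log2 ratio of -1.54 (-1.70 to -1.39).

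The plot of levels by cluster shows the joint pattern of high *Satb1* and *Lef1* with low *Il7r* in clusters 3 and 7.

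**Figure D2:**
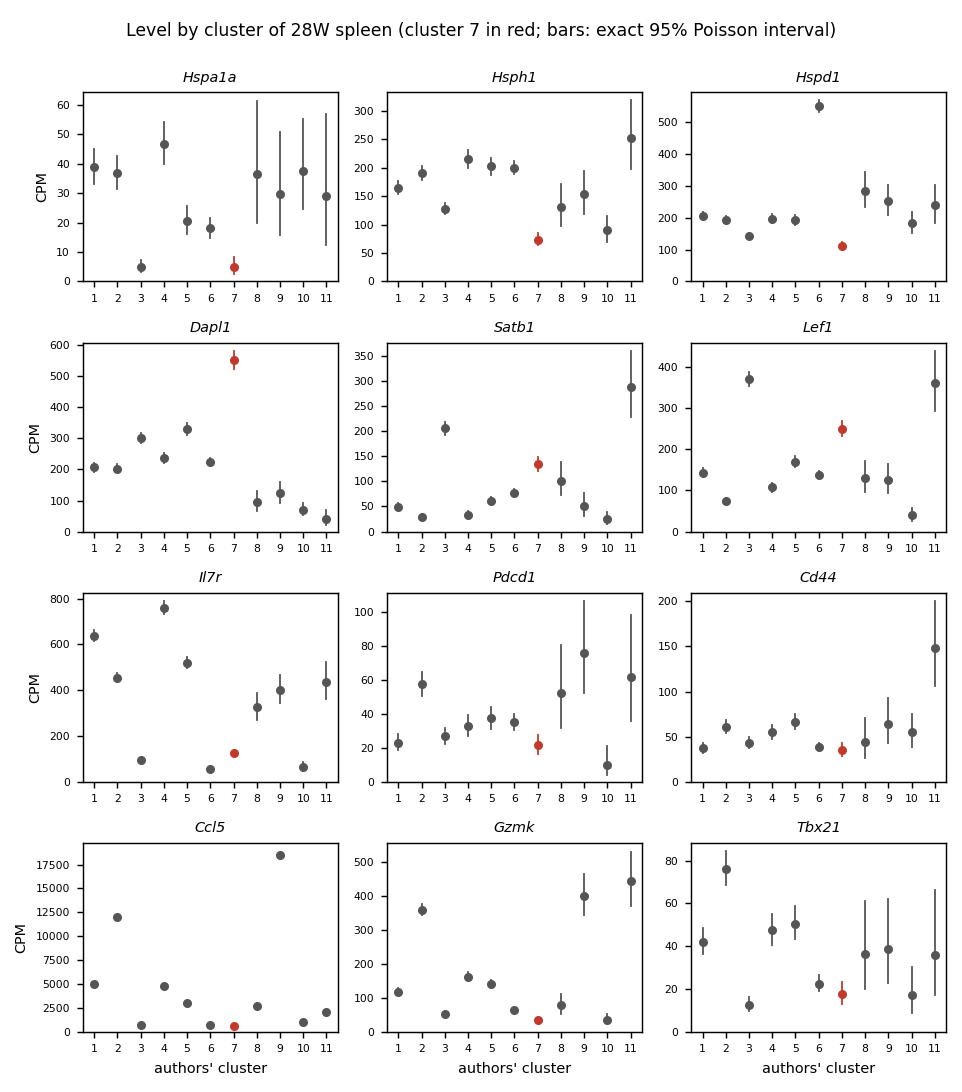
Level of 12 genes (y axis, CPM) in each of the authors' 11 clusters of 28W spleen (x axis), with cluster 7 in red and bars for the exact 95% Poisson interval. Cluster 7 is highest for *Dapl1* at 552 CPM, and lowest for the heat shock genes *Hspa1a*, *Hsph1* and *Hspd1* and for *Ccl5* and *Gzmk*, although for *Hspa1a* cluster 3 and for *Gzmk* cluster 10 lie within its interval.

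Beside *Dapl1*, the genes in which cluster 7 exceeded every other cluster by most were *Izumo1r*, *Igbp1*, *2210016L21Rik* and *Coro1a*. *Izumo1r*, a member of the folate receptor family on T cells, was at 183 CPM (168 to 200) against 17.3 to 139 elsewhere, a log2 ratio of 1.16. *Coro1a*, an actin-binding protein of leukocytes, was at 2383 CPM against 932 to 1886 elsewhere. *Igbp1* was at 82.4 CPM (72.0 to 94.0) against 26.1 to 64.9. In all, cluster 7 was the highest of the 11 in 118 of the 5216 genes and the lowest in 513. In cluster 11, which had the fewest UMIs of the 11 clusters (276894), these counts were 2247 and 1232.

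Others among the 15 highest ratios were shared with cluster 3. *Trdc*, the constant region of the T cell receptor delta chain, had the largest ratio at 1.25 (0.93 to 1.69), with 73 UMIs or 26.9 CPM (21.1 to 33.8), beside 27.9 in cluster 3, 34.3 in cluster 9 and 2.93 to 14.4 in the rest. Delta chain V segments were looked up after their values were seen. *Trdv2-2* was at 23.2 CPM (63 UMIs, beside 66.4 CPM in cluster 9) and *Trdv1* at 12.1 (33 UMIs, beside 36.6 CPM in cluster 9). *Trdv5* was at 7.73 (21 UMIs, beside 22.7 CPM in cluster 3), and *Trdv2-1*, *Trdv3* and *Trdv4* had at most 1 UMI. Of the gamma chain genes, *Trgv2* was at 12.5 CPM (34 UMIs), *Tcrg-V1* at 4.78 (13 UMIs) and *Tcrg-C4* at 2.94, with at most 11 UMIs in any other. The lineage markers *Sox13* and *Il17a* had no UMI. *Chil5* was at 29.8 CPM (cluster 3, 32.0), *Abcb9*, a lysosomal peptide transporter, at 26.5 (25.4) and *Mxd4*, a MAX partner that opposes MYC, at 145 (143). *H2-Oa*, a chain of the MHC class II modulator DO, was at 49.3 CPM, above cluster 3 at 40.1 and below cluster 10 at 98.3. *Spata6* (1.04), *Gm19585* (1.002), *5830405F06Rik* (0.94), *Arl5c* (0.88), *Ms4a4c* (0.82) and *Tnfrsf13b* (0.78), the receptor TACI, were also among them, as was *Rgs10*.

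Heat shock genes were low in cluster 7. Of 15 listed genes, 12 were compared, all 12 had a ratio below 0 and 10 were lower past 1.5-fold, with a median of -0.74 (-0.53 relative to all genes). Their summed level was 5428 CPM (5340 to 5516), the lowest of the 11 clusters, followed by 6246 in cluster 3 and up to 11795 in cluster 6. *Hspa1a*, the main inducible HSP70 (GRCm38 chromosome 17, 34969190 to 34972156, minus strand), had 13 UMIs in cluster 7, or 4.78 CPM (2.55 to 8.18). Cluster 3 was at 4.99 CPM, within that interval, and the remaining 9 clusters were at 18.0 to 46.6. Cluster 7 was singled out for description as the cluster with the lowest *Hspa1a* of the library, so this rank restates the choice, and at this depth it could not be told from cluster 3. *Hspa1a* is also 1 of the 12 genes counted above. Its near-identical neighbour *Hspa1b*, with which reads may be divided, was at 8.10 CPM (5.07 to 12.3) beside 9.35 in cluster 3.

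Much of the low chaperone level was shared with cluster 3. Against that cluster 2 of 10 genes were lower past the fold (median -0.32, or -0.07 relative to all genes), beside 19% of all genes compared, and those 2 were *Hsph1* (-0.79) and *Hsp90aa1* (-0.66). *Hsph1*, an HSP110 nucleotide exchange factor, was at 73.6 CPM (63.8 to 84.5), below 89.6 in cluster 10 and 128 in cluster 3, with up to 253 elsewhere. *Hsp90aa1*, the inducible HSP90, was at 278 CPM (259 to 299) against 332 to 888, and *Hspd1*, the mitochondrial HSP60, at 112 (99.3 to 125) against 142 to 551. *Dnaja1*, an HSP40 cochaperone, was at 432 CPM (408 to 458) against 438 in cluster 10, within that interval, to 815. Log2 ratios over the other cells were -2.26 for *Hspa1a*, -1.78 for *Hspa1b*, -1.28 for *Hsph1*, -1.25 for *Hspd1* and -1.14 for *Hsp90aa1*. The endoplasmic reticulum chaperones *Hspa5* (-0.61) and *Hsp90b1* (-0.71) were also past the fold, and *Dnaja1* (-0.56) and the constitutive *Hspa8* (-0.39) were not. Against clusters 1 to 5 alone, 7 of 12 were lower past the fold, with a median of -0.69.

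Stretches of 150 bases before the transcription start (RefSeq, GRCm38.p6) are printed for 3 of these genes, because heat shock factor binds inverted repeats of the 3 bases GAA, and for *Dapl1*, the gene in which cluster 7 exceeded every other cluster by most. They lie at chr17:34972157-34972306 on the minus strand (*Hspa1a*), chr5:149636337-149636486 on the minus strand (*Hsph1*), chr1:55087998-55088147 on the plus strand (*Hspe1*) and chr2:59484503-59484652 on the plus strand (*Dapl1*). They are written 5′ to 3′ along the gene's strand, and capitals mark each match to TTCNNGAA or to GAANNTTC, the same repeats in the other order, which was added after the sequences were seen. Both patterns read the same on either strand.
Hspa1a: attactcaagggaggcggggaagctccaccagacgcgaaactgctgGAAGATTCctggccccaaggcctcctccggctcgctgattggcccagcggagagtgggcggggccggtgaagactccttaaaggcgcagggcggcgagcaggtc
Hsph1: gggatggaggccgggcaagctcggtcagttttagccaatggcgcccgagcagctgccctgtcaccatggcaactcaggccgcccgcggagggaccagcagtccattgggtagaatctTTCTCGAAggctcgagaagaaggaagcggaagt
Hspe1: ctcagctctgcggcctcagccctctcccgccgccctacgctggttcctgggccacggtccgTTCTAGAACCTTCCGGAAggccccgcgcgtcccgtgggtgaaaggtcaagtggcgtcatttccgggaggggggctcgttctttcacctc
Dapl1: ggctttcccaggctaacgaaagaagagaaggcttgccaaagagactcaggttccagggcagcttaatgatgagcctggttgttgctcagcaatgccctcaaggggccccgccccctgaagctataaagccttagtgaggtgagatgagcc

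In *Hspe1*, the mitochondrial HSP10, 3 matches overlap in 1 run. Over 250 upstream bases, 6 of the 12 heat shock genes with an entry held a match in either order, against 13% of 27025 genes. The near-identical *Hspa1a* and *Hspa1b* are both among these 6, each through GAANNTTC. *Hsph1* and *Hspe1* are too, so every heat shock stretch printed comes from a gene with a match and does not stand for the list. *Hspa5*, *Hsp90b1*, *Hspd1*, *Dnajb1*, *Dnajb4* and *Bag3* held no match in either order. None of the 12 naive and memory genes with an entry held a match. For TTCNNGAA alone the shares were 16.7% and 7.15%, and for GAANNTTC alone 41.7% and 6.78%. These letters are a description of the sequence and not a measure of binding.

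Effector genes were low as well. In the cytotoxic list 5 of 12 genes compared were lower and none higher (median -0.56, or -0.36 relative to all genes). The listed genes summed to 2435 CPM, the lowest of the clusters but close to 2524 in cluster 6, 2547 in cluster 3 and 2791 in cluster 10, where the rest had 4604 to 22341. Against cluster 3, none of 10 cytotoxic genes was past the fold (median -0.16, or 0.09 relative to all genes). *Ccl5*, a chemokine stored by memory and effector CD8+ T cells, was at 637 CPM (608 to 668) in cluster 7, the lowest of 11, against 737 in cluster 6, 747 in cluster 3 and 18451 in cluster 9. Its log2 ratio was -2.75 (-2.82 to -2.69). *Gzmk* was at 34.6 CPM (28.0 to 42.3), beside 34.7 in cluster 10 and 444 in cluster 11, and *Gzmb* had 6 UMIs, 2.21 CPM (0.810 to 4.81), against 96.3 in cluster 2. *Prf1*, the pore-forming perforin, was at 32.8 CPM (-0.67) and *Nkg7* at 504 (-0.65).

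Of the chemokines and cytokines, 5 of 9 compared were lower and none higher (median -1.42, or -1.21 relative to all genes). *Ifng* was at 21.3 CPM (16.2 to 27.6) against a median of 66.9 in the other clusters, a log2 ratio of -1.62. *Ccl4* was at 17.3 CPM (-2.56), *Ccl3* at 4.05 (-2.19), *Tnf* at 12.1 (-1.42) and *Xcl1* at 60.4 (-1.50). For *Xcl1* the contrast lay in clusters 6 (584 CPM) and 8 (547), and the median of the other clusters was 52.4. Against clusters 1 to 5, 3 of 8 genes of the list were lower, with a median of -0.14, or 0.04 relative to all genes. Unlike these, *Ltb* (0.10) and *Il16* (0.25) were within the fold. Of the effector transcription factors, 5 of 8 were lower (median -0.90, or -0.69 relative to all genes). The lowest ratio was that of *Bhlhe40* (-2.02), then *Irf8* (-1.26), *Tbx21*, which encodes T-bet (-1.11), *Eomes* (-0.90) and *Id2* (-0.89). *Prdm1* had no UMI in cluster 7. Against clusters 1 to 5, 8 of 13 cytotoxic genes (median -0.68) and 4 of 7 effector transcription factors (median -0.70) were lower. The effector transcription factors summed to 452 CPM, the lowest of the clusters but close to 472 in cluster 1. Against cluster 1, 2 of 6 were lower and 1 higher (median 0.09, or 0.05 relative to all genes). Against cluster 3, 3 of 6 were lower (median -0.46, or -0.21 relative to all genes), beside 19% of all genes compared.

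Inhibitory receptors were mixed in level. Of 6 genes compared, 3 were lower (median -0.59, or -0.39 relative to all genes). *Tigit* was at 5.15 CPM (2.82 to 8.65), the lowest of 11 beside 6.99 in cluster 1, with a ratio of -2.25, and *Cd160* was at 18.8 (-0.74) and *Pdcd1* at -0.73. *Lag3* at 123 CPM (0.15), *Ctla4* at 87.6 (-0.14) and *Tox* at 53.7 (-0.46) were within the fold, and *Havcr2* had no UMI. Against clusters 1 to 5, 2 of 6 were lower (median -0.49).

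Growth and division genes were low, and much of that contrast lay in cluster 6. Of 12 growth genes, 11 were lower than in the other 10 clusters (median -0.97, or -0.77 relative to all genes), and of 13 proliferation genes 12 were (median -1.95, or -1.75 relative to all genes). Cluster 6 alone had 22.0% of the UMIs of the other cells and a summed proliferation level of 8614 CPM, against 1666 in cluster 7 and 1721 to 3212 elsewhere. Against clusters 1 to 5, 4 of 12 growth genes were lower (median -0.34, or -0.15 relative to all genes). Of 5 proliferation genes that still reached 20 CPM there, 1 was lower and 1 higher (median -0.20, or -0.01 relative to all genes). *Srm*, spermidine synthase, was at 18.8 CPM (14.0 to 24.7), the lowest of 11 beside 22.7 in cluster 3 and 243 in cluster 6. *Nop56*, a ribosomal RNA processing protein, was at 30.2 CPM against 34.3 to 138 elsewhere. *Stmn1* was at 37.2 CPM in cluster 7, above clusters 1, 2, 4 and 5 at 11.1 to 25.5 and far below 569 in cluster 6, and *Ube2c* was at 12.9 beside 1.40 to 4.37 in clusters 1 to 5.

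The antigen receptor response list had 6 of 10 genes lower (median -0.997, or -0.79 relative to all genes) against all others. Against clusters 1 to 5 it had 2 of 8 lower (median -0.33, or -0.14 relative to all genes). *Nr4a1*, an early target of receptor signalling, was at 9.57 CPM (-1.35), *Nr4a2* at 22.1 (-1.04) and *Tnfrsf9*, which encodes 4-1BB, at 6.62 beside 153 in cluster 6 (-2.47). *Cd69* (-0.32), *Nfatc1* (-0.28) and *Cd5* (0.24) were within the fold. Immediate-early genes were lower past the fold in 2 of 15, *Klf6* (-0.92) and *Fosb* (-0.70), with a median of -0.27 (-0.06 relative to all genes). NF-kB genes were lower in 3 of 12 (median -0.24, or -0.04 relative to all genes), namely *Nfkbid* (-1.41), *Tnfaip3* (-1.07) and *Nfkb2* (-0.59).

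**Figure D3:**
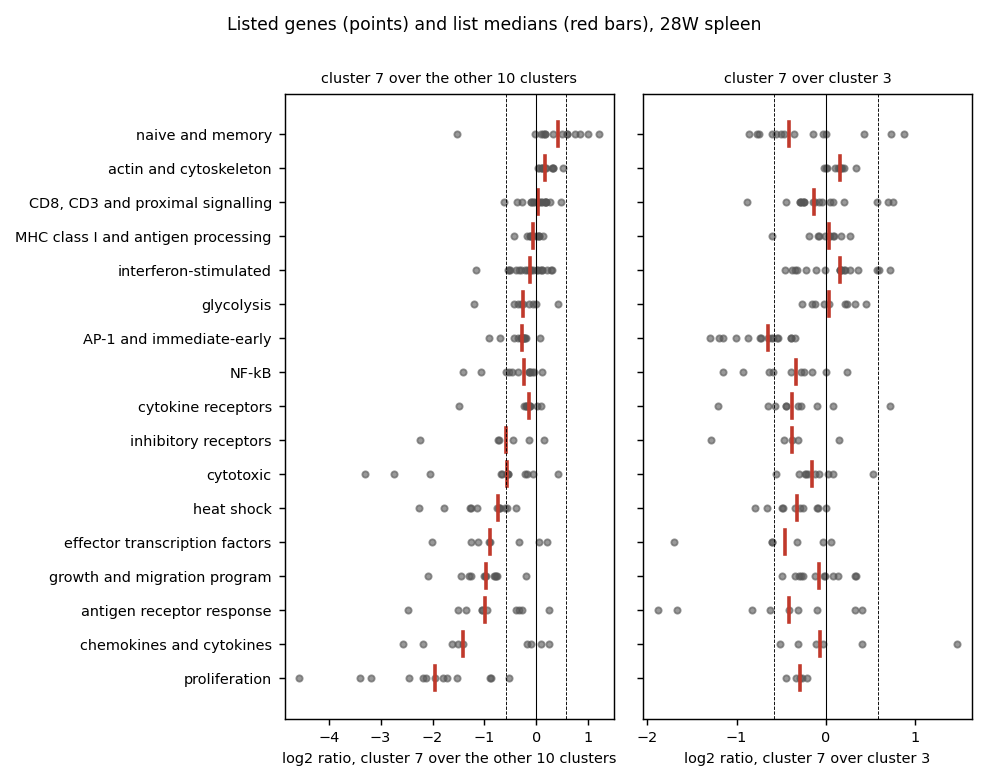
Log2 ratio of cluster 7 over the other 10 clusters (left panel, x axis) and over cluster 3 (right panel, x axis) for the genes of 17 lists (y axis), each point 1 gene that reached 20 CPM on either side, with red bars at list medians and dashed lines at 1.5-fold. On the left the heat shock median is -0.74 and the naive and memory median 0.42, and on the right they are -0.32 and -0.41.

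Several remaining lists had few or no genes past the fold. Interferon-stimulated genes had 1 of 21 lower, *Ifit3b*, and none higher (median -0.13, or 0.08 relative to all genes). Against clusters 1 to 5, 6 of 22 were lower and 20 of 22 below 0 (median -0.37, or -0.18 relative to all genes). Their sum was 6902 CPM in cluster 7, below 10877, 8662 and 7508 in clusters 4, 5 and 2. It was above 5971 in cluster 1 and 5285 in cluster 3. Against cluster 3, 2 of 19 were higher and 0 lower (median 0.16, or 0.41 relative to all genes). Against cluster 1, 3 of 19 were higher and 1 lower (median 0.16, or 0.12 relative to all genes). MHC class I and antigen processing genes (11 compared, median -0.05, or 0.15 relative to all genes) had none past the fold. Nor had actin and cytoskeleton genes (11, median 0.17), although these summed to 48498 CPM, the highest of the 11 clusters. Of 18 CD8, CD3 and proximal signalling genes, 1 was lower and none higher, with a median of 0.04. Ribosomal protein genes had none of 83 past the fold (median 0.19). Mitochondrially encoded genes had 1 of 13, *mt-Nd6* (-1.54), with a median of -0.14, or 0.06 relative to all genes. Of 9 glycolysis genes 1 was lower, *Tpi1* (-1.19; median -0.25), and of 7 BCL2 family genes 1, *Bcl2a1d* (-0.59; median -0.35).

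Genes of adhesion and migration were lower in part, where 15.1% of all 5216 genes compared were lower. Integrin and CD29 genes were lower in 3 of 7 (median -0.35), and these were *Itgb1*, which encodes CD29, at 266 CPM (-0.65), *Itga4* (-0.87) and *Ahnak* (-1.03). S100, annexin and galectin genes were lower in 5 of 13 (median -0.34), with *S100a6* at 260 CPM (-0.98), *S100a4* at 66.6 (-0.70) and *Lgals3* at 14.7 (-1.36) beside *S100a8* and *S100a9*. The last pair are also neutrophil markers, whose sum was highest in cluster 8. Against clusters 1 to 5, 3 of 11 genes of the S100, annexin and galectin list were lower (median -0.24, or -0.05 relative to all genes). *Klf3* (-0.94) was the 1 of 5 egress genes past the fold (median -0.12, or 0.09 relative to all genes). *S1pr1*, the receptor for exit from lymphoid tissue, was at -0.12. *Cxcr4* was the 1 of 3 chemokine receptors past it (median -0.55), with *Cxcr3* at -0.55 and *Cxcr6* at -0.10. Tissue residency genes were lower in 2 of 4 (median -0.58), *Rgs1* (-0.84) and *Xcl1*.

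Where 15.1% of all genes compared were lower, cytokine receptors were lower in 1 of 11, *Il18r1* (-1.50). Their median was -0.14, or 0.07 relative to all genes. Cytokine feedback genes were lower in 3 of 10, *Pim1* (-0.98), *Socs1* (-0.78) and *Bcl2a1d* (median -0.27). Costimulatory receptors were lower in 1 of 9, *Slamf7* (-0.93), with a median of -0.07, or 0.13 relative to all genes. Regulatory and Ikaros genes were lower in 1 of 6, *Sox4* (-1.32; median -0.25). Among 3 NK receptors compared (median -0.52), *Klrd1*, which encodes CD94, was at 170 CPM and higher (0.75), *Klrk1*, which encodes NKG2D, was lower (-0.74), and *Klrc1*, the NKG2A partner of CD94, was at -0.52. Of the other marker lists of the study's cluster naming, cytotoxic markers were lower in 5 of 6 (median -1.37), migration markers in 5 of 5 (-1.50), proliferation markers in 6 of 6 (-2.08), CD29 markers in 3 of 5 (-0.65), Junb and NF-kB markers in 2 of 5 (-0.35) and ISG markers in none of 6 (-0.25). Migration and proliferation markers were highest in cluster 6, at a summed 2666 and 3074 CPM beside 428 and 383 in cluster 7.

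The cluster most like cluster 7 across the 5216 genes was cluster 3, with a Pearson correlation of 0.974 on log2(CPM + 1), then cluster 1 (0.964) and cluster 5 (0.961). Cluster 11 was least alike (0.682). Genes are not independent replicates, and the clusters differ in depth. Against cluster 3, 47 of 5237 genes were higher (0.897%) and 995 lower (19%), with a median of -0.25. *Sox4* was at 10.3 CPM in cluster 7 and 115 in cluster 3, a log2 ratio of -3.36 (-4.09 to -2.93), and *St8sia6* (-2.79), *Kcnc1* (-2.62), *Dglucy* (-2.20) and *Klf4* (-2.03) followed.

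*Ikzf2*, which encodes Helios, was at 38.6 CPM beside 135 in cluster 3 (-1.78), *Myb* at 59.6 beside 177 (-1.55) and *Eomes* at 40.1 beside 132 (-1.70). Of the regulatory and Ikaros list, 4 of 6 were lower and 1, *Capg*, higher than in cluster 3. Immediate-early genes were lower in 10 of 15 (median -0.65, or -0.40 relative to all genes), with *Fos* at 387 CPM beside 887 (-1.19), *Jun* at 244 beside 489 (-1.002) and *Dusp1* at 165 beside 366 (-1.15). Naive and memory genes were split, with *Dapl1* (0.87) and *Igfbp4* (0.73) higher and 4 of 14 lower (median -0.41).

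In the other direction, *S100a4* was at 66.6 CPM in cluster 7 and 6.44 in cluster 3, a ratio of 3.18 (2.81 to 3.97), and *S100a6* at 260 and 51.1 (2.32). *Zbtb32* (1.51), *Ifng* (1.47) and *Capg* (1.46) followed, and *Itgb1* was at 266 CPM beside 124 (1.10). The coreceptor genes *Cd8b1* (0.75) and *Cd8a* (0.69) were also higher than in cluster 3. For *S100a6* and *Itgb1*, cluster 7 thus lay between cluster 3 and clusters 1, 2, 4 and 5, which were at 572 to 1186 and 374 to 821 CPM.

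**Figure D4:**
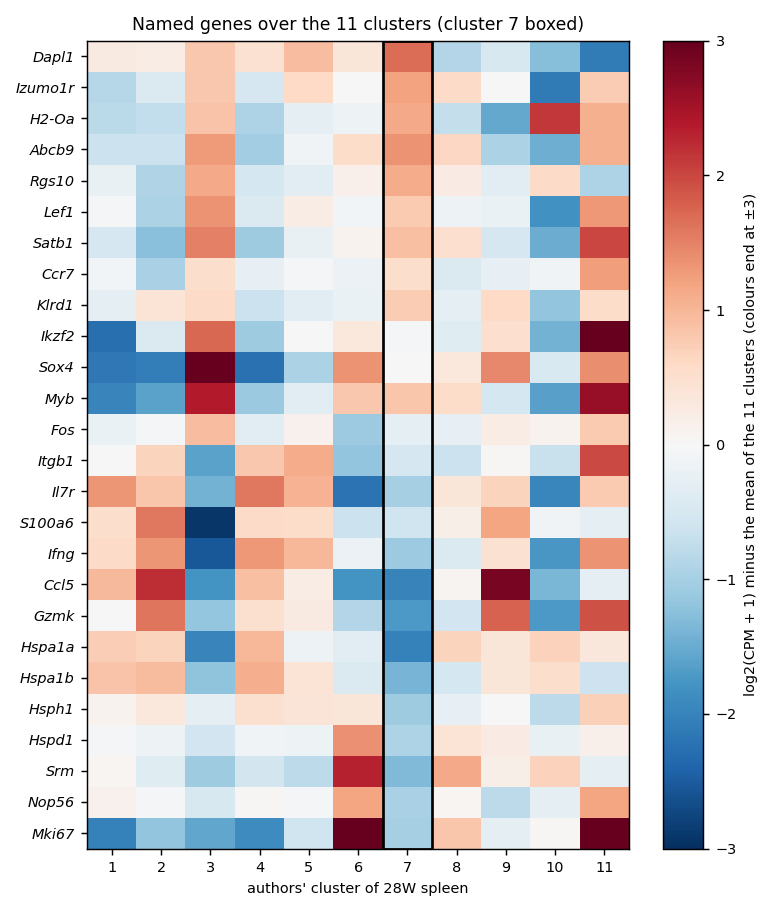
Level of 26 named genes (rows) in the authors' 11 clusters of 28W spleen (columns), as log2(CPM + 1) minus the mean of the 11 clusters, with colours ending at ±3 and cluster 7 boxed. Cluster 7 resembles cluster 3 in *Lef1*, *Il7r*, *Ccl5* and *Hspa1a*, and departs from it in *Sox4*, *Ikzf2*, *Myb* and *S100a6*.

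Against cluster 1, 353 of 4811 genes were higher (7.34%) and 293 lower (6.09%), with a median of 0.04. Naive and memory genes were higher in 10 of 14 (median 0.83) and heat shock genes lower in 8 of 12 (median -0.80). *Trdc* (2.83), *Myb* (2.81), *Ikzf2* (2.19), *Tnfrsf13b* (2.101) and *Izumo1r* (2.07) were the 5 highest. The 5 lowest were *Igkc* (1 UMI beside 38.3 CPM), *Ccl5* (-2.99), *Hspa1a* (-2.78), *Il7r* (-2.33) and *Hspa1b* (-2.25). Because cluster 7 was picked by its low *Hspa1a*, a low value of that gene restates the choice here too. The same holds for its part in the heat shock count, and *Hspa1b* may share reads with it.

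T cell receptor V segments were spread over many genes in cluster 7. UMIs fell on 22 *Trbv* segments, led by *Trbv13-1* with 25.9% of 5484 UMIs (24.8 to 27.1%), *Trbv13-2* with 20.8% and *Trbv4* with 10.2%. In the other cells these segments took 21.5%, 18.8% and 9.84%. The effective number of *Trbv* segments, which counts them as if equally used, was 9.44 in cluster 7 and 10.6 in the other cells. *Trav3-3* led the alpha chain with 10.4% of 2442 UMIs (9.90% in the other cells), followed by *Trav8d-2* with 5.53% (2.79%) and *Trav13-1* with 4.59% (4.57%). Because a single cell or clone contributes many UMIs, the true uncertainty of these shares is larger than the intervals.

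In the other libraries, the cluster most like cluster 7 was cluster 4 of 12W spleen (1002 cells, correlation 0.978) and cluster 5 of 28W kidney (631 cells, 0.951). Age and organ differ with the library here, and kidney but not spleen is described as digested with collagenase, so these cannot be told apart from the preparation. Against cluster 4 of 12W spleen, 106 of 4838 genes were higher (2.19%) and 208 lower (4.3%), with a median of -0.05. *Dapl1* (552 beside 561 CPM) was level. *Ccr7* (263 beside 495), *Lef1* (250 beside 472) and *Satb1* (135 beside 232) were lower in cluster 7.

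Immediate-early genes were higher than in that 12-week cluster in 8 of 15 (median 0.82), with *Fos* at 387 beside 103 CPM and *Junb* at 708 beside 267. *Ccl5* was at 637 beside 119 CPM (2.42), *S100a6* at 260 beside 28.4 (3.15), *Ifng* at 21.3 beside 1.82 (2.99), *Lag3* at 123 beside 21.3 (2.47) and *Itgb1* at 266 beside 65.7 (2.002). Interferon-stimulated genes were higher in 7 of 18 (median 0.46). *Hspa1a* was at 0.660 CPM there, and over the 10 clusters of 12W spleen it ran from 0.536 to 9.55 CPM, a range that includes the 4.78 of cluster 7.

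Against cluster 5 of 28W kidney, 358 of 4923 genes were higher (7.27%) and 464 lower (9.43%), with a median of -0.03. Naive and memory genes were higher in 13 of 14 (median 1.51), with *Lef1* at 250 beside 82.9 CPM and *Dapl1* at 552 beside 162, and *Il7r* was lower (126 beside 624). Heat shock genes were lower in 11 of 14 (median -1.14). *Hspa1a* was at 4.78 CPM beside 1121, and in the 12 kidney clusters it ran from 90.6 to 1164, all above the highest cluster of 28W spleen at 46.6. *Ccl5* (637 beside 6166) and *Ifng* (21.3 beside 95.8) were lower too. The plot of the 3 clusters side by side shows cluster 7 between the others for 12 of the 16 genes drawn. These genes were chosen with the values known, so the count is no measure of all genes. The immediate-early median was above 0 over both the 12-week cluster (0.82) and the kidney cluster (0.10).

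**Figure D5:**
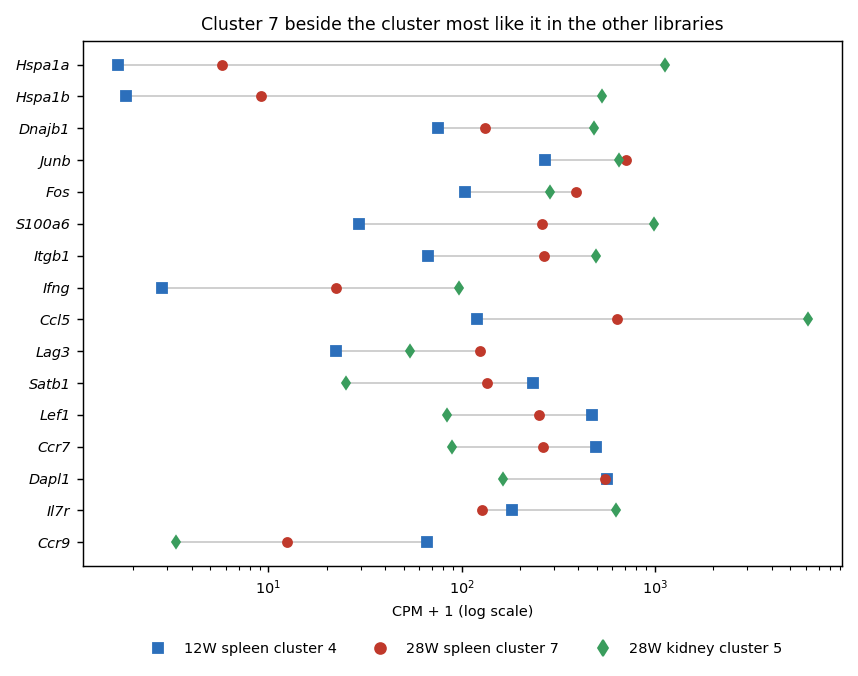
Level of 16 genes (rows) on a log axis of CPM + 1 in cluster 7 of 28W spleen (red circles), cluster 4 of 12W spleen (blue squares) and cluster 5 of 28W kidney (green diamonds), each the cluster most like cluster 7 in its library. *Hspa1a* runs from 0.660 CPM in the 12-week cluster through 4.78 in cluster 7 to 1121 in the kidney cluster, and *Dapl1* is level in the pair of spleen clusters at 561 and 552.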

How the data were processed

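Sorted cells (PD-1+CD44+CD8+) from NZB/W F1 spleen and kidney were captured with 10x 5′ v2 chemistry. The submitters' processing notes name Cell Ranger 2.1.1, R 3.6.1 and GRCm38. The annotation release, cell filters, clustering method and doublet treatment are not given in the sources used here. The values deposited by the authors are mean counts per cell of each cluster, scaled within each library to its median UMIs per cell (4128 in 28W spleen). Columns of the authors' fold changes and adjusted p-values were also deposited and were not used.

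Each cluster's whole UMIs were recovered from these mean counts and the cluster's cell number (largest deviation from a whole number 1.46e-11) and expressed as CPM. The 3 libraries were normalized separately, so levels were set across them on CPM alone. Log2 ratios used a pseudocount of 1 CPM, a minimum of 20 CPM on either side and a threshold of 1.5-fold. Intervals are exact 95% Poisson (CPM), binomial (shares) and conditional binomial (ratios, without the pseudocount), and a count of 0 was bounded by 3 counts. They cover counting error only, and their width is set by the UMIs of the cluster (2717015 in cluster 7). The depths of the whole libraries were 29937384 to 34742303 UMIs. With 1 library per group no test was run.

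The gene lists and the members were chosen with earlier results of these data known. Genes named are those of the lists and markers, the 15 highest and 15 lowest ratios, the 5 highest and lowest against each of the 2 most like clusters, the 5 in which cluster 7 was highest or lowest of the 11 by the largest gap, and the 3 most used *Trbv* and *Trav* segments. Of 16194 gene identifiers, 16168 were found in the reference annotation (GENCODE M21). Alternatives changed the pseudocount, the minimum, the scaling and the clusters compared. Python 3.11.15, numpy 2.4.6, pandas 2.3.3, scipy 1.17.1 and matplotlib 3.10.9 were used, and the counting was checked on simulated data. Results of some genes are not reported here.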

Additional observations from a re-analysis of the deposited data

How the results depend on the processing

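Against 53 genes higher and 786 lower, a pseudocount of 10 CPM gave 24 and 456, a minimum of 50 CPM 29 and 267, and no minimum beyond 1 UMI 271 and 3005. Scaling by the median gene ratio gave 168 and 401, and totals without receptor, immunoglobulin, mitochondrial and ribosomal genes gave 150 and 794. An unweighted mean of the other clusters gave 71 and 1349. Leaving out clusters 8, 10 and 11 gave 54 and 737, and, chosen after seeing the data, leaving out cluster 6 gave 55 and 662. The cluster most like cluster 7 in each library was the same under Spearman correlation and without ribosomal and mitochondrial genes. The second most like in 28W spleen was not the same under Spearman correlation, where cluster 2 (0.9311) came before cluster 1 (0.9297). No list median past 1.5-fold changed sign under any of these settings, nor did any of the 26 to 44 genes past it that could be evaluated per setting, among 50 genes recomputed. The other named genes were not recomputed.

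Of 7 list medians past 1.5-fold, 2 (heat shock, -0.69, and effector transcription factors, -0.79) were past it without cluster 6. The other 5 came to -0.38 (antigen receptor response), -0.50 (inhibitory receptors), -0.16 (chemokines and cytokines), -0.37 (growth) and -0.21 (proliferation). The median of all genes without cluster 6 was -0.20. With a minimum of 50 CPM, effector transcription factors were at -0.33 and inhibitory receptors at -0.14, both inside the fold. Without cluster 6 the interferon-stimulated median moved to -0.35. With the median gene set to 0, the heat shock median was -0.53, inside the fold, and inhibitory receptors were at -0.39. No paired analysis was possible because the cells carry no sample, and no sample could be left out in turn, since the 4 samples of a library are not told apart in the tables and may be lanes of 1 library. Depth limits genes under about 20 CPM most, since in cluster 7 a count of 0 allows up to 1.10 CPM.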
